A study of Mus musculus with 5 samples.

Results

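A set of 48 genes of mitosis and the spindle checkpoint was read in RNA-Seq libraries of mouse neural stem/progenitor cells (NSPCs). The genes were taken by symbol. All 48 were found among the 12588 gene sums of the table, and all 48 had a mean of at least 50 normalized counts over the libraries. A gene sum is the total over the listed transcripts of a symbol, and a normalized count is a count divided by the size factor of its library. There were 2 libraries labelled WT (genotype p75NTR+/+, replicates 1 and 4) and 3 labelled p75NTR-/- (replicates 1, 2 and 4), named here WT 1, WT 4 and p75NTR-/- 1, 2 and 4. All came from the strain C57BL/6J, with the WT cells described as from litter mates. The cells of every library were kept with FGF-2 and EGF, each at 20 ng/ml, and had no other treatment. These are growth factors that keep NSPCs dividing. The labels give E12.5 embryos as the source and the paper adult cells. The p75NTR-/- genotype is a germline mutation of Ngfr, the gene of the neurotrophin receptor p75NTR, and would be carried by every cell of a culture. The paper describes 4 replicas from independent preparations, more than the libraries read here for either label. The labels do not tie a replicate number to an animal, litter or day, so the p-values below measure only the spread between these libraries.

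Mitosis begins when cyclin-dependent kinase 1 is switched on by cyclin A and cyclin B and phosphorylates many targets, which leads to chromosome condensation and spindle assembly. Kinetochores, built on the centromeres, then catch microtubules, and the spindle checkpoint holds back the anaphase-promoting complex (APC/C), a ubiquitin ligase, until every chromosome is attached. Most of these genes are transcribed in G2 and M phase under the control of the MuvB core, B-MYB and FOXM1, so their mRNAs mark cycling cells in a growing culture of neural progenitors. In bulk RNA a smaller share of cycling cells and less mRNA per cycling cell cannot be told apart.

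The libraries held between 11688211 and 14452396 recovered counts. Ngfr, the targeted gene, went against the labels, with 0.98 and 2.08 normalized counts in the libraries labelled WT 1 and WT 4 and 9.89, 141.0 and 251.0 in those labelled p75NTR-/- 1, 2 and 4. Its count covers whole transcripts, so reads from parts of the gene that a targeted allele keeps would be included, but both libraries labelled WT were under the limit of 3 counts. The names WT and p75NTR-/- therefore stand for labels throughout. In a principal component analysis the libraries numbered 4 lay apart from the other 3 on the axis with 51.7% of the variance, and WT 1 lay apart on the next axis with 36.5%. All 10 progenitor markers were listed, with summed levels between 86605 and 118240 normalized counts, and Nes and Sox2 were present in every library. Some single markers were less even than this sum. Nes was at 8703.5 normalized counts in WT 1 and 23123 in p75NTR-/- 1, while Sox2 was at 1517 and 714 and Hes5 at 545.6 and 43.5. In mean log2 level, 7 of the 10 were lower and 3 higher under the p75NTR-/- label. All 6 astrocyte markers were listed too. Of the markers of other cell types, 4 of 7 neuronal, 5 of 8 oligodendrocyte lineage, 1 of 5 endothelial, 1 of 6 mesenchymal and 0 of 5 microglial ones were listed.

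The mitosis genes gave nearly the same order of libraries. WT 1 was the lowest of the 5 libraries for 42 of the 48 genes (87.5%), compared with 33.3% of all 10786 gene sums with a mean of at least 50 normalized counts. p75NTR-/- 1 and 2 were the highest pair for 45 of the 48, compared with 22.8% of all, and the libraries WT 4 and p75NTR-/- 4 lay in between. This full order held for 40 of the 48 genes (83.3%) and for 12.1% of all. Summed over the 48 genes, the level was 54310.4 normalized counts in WT 1, 73477 in WT 4, 68637 in p75NTR-/- 4, 90169.8 in p75NTR-/- 1 and 93876 in p75NTR-/- 2, which is between 0.383% of all counts in WT 1 and 0.669% in p75NTR-/- 2. The libraries with the same label thus differed from each other, WT 1 from WT 4 and p75NTR-/- 4 from p75NTR-/- 1 and 2, while WT 4 and p75NTR-/- 4, with different labels, were close.

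**Figure D1:**
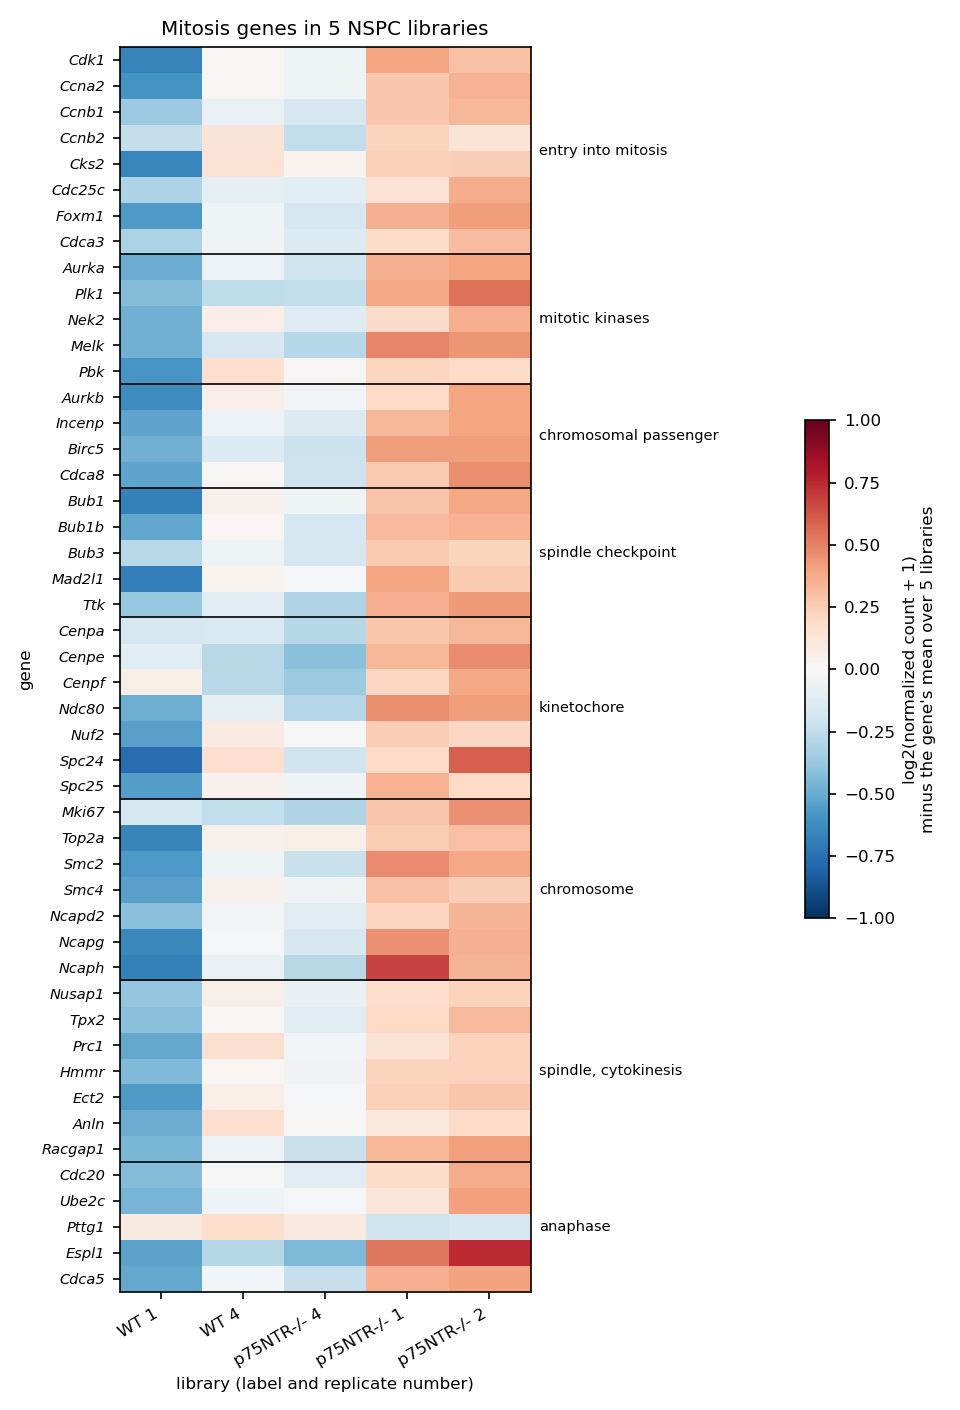
Heat map of the 48 genes (rows, by role) in the 5 libraries (columns). Colour gives log2(normalized count + 1) less the mean of that gene over the 5 libraries, from blue (lower) to red (higher). WT 1 is blue in nearly every row, WT 4 and p75NTR-/- 4 are pale, and p75NTR-/- 1 and 2 are red, with Pttg1 as an exception.

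Genes that peak in G2 and M phase often carry CCAAT boxes, which bind NF-Y, and a cell cycle genes homology region (CHR), which is bound by the MuvB core, in their promoters. RefSeq promoter windows (GRCm38.p6, from 250 bases before to 50 bases after the start) were available for 39 of the 48 genes, as 42 windows. Those of Ccna2, Cdc25c, Foxm1, Pbk, Aurkb, Incenp, Spc24, Smc4 and Tpx2 were not used here. The CHR was searched as TTTGAA or TTCGAA and the CCAAT box as CCAAT, on both strands, and a match is a stretch of letters and not a shown binding site. A CHR was found in 31 of the 42 windows (73.8%) and in 19.1% of the 32544 RefSeq windows, a CCAAT box in 32 (76.2%) and in 37.4%, and both in 28 (66.7%) and in 7.5%. With only the bases before the start, the shares were 40.5% and 17.0% for the CHR and 76.2% and 33.8% for the CCAAT box. Counted by gene, 28 of the 39 had a CHR and 29 a CCAAT box in the whole window. CCAAT matches of these genes had a median position of -68 relative to the start, with 45 of 77 lying from 120 to 20 bases before it. CHR matches had a median position of -15, with 30 of 43 within 50 bases of the start. Bub3, Prc1 and Ect2 have overlapping windows, so a site there can count more than once, at different distances.

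Of the 42 windows, 30 start within 50 bases of the annotated 5′ end of the most abundant listed transcript of the gene. The bases before the RefSeq start are shown for 6 genes of this kind, with at most 30 bases inside the annotated gene, 5′ to 3′ on the strand of the gene, with each CHR and CCAAT match in capitals. Cdk1, Mki67 and Top2a stand for the entry kinase and the common proliferation markers. Plk1 and Ube2c are, with Top2a, the genes whose libraries did not overlap between the labels. Espl1 had the widest label difference of the 48.
Cdk1 (chr10:69352913-69353162, minus strand): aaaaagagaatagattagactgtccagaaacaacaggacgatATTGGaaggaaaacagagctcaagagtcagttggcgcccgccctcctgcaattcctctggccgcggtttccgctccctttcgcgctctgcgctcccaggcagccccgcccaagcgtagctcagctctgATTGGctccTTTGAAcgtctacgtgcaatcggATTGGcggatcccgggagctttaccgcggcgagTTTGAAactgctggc
Mki67 (chr7:135716380-135716629, minus strand): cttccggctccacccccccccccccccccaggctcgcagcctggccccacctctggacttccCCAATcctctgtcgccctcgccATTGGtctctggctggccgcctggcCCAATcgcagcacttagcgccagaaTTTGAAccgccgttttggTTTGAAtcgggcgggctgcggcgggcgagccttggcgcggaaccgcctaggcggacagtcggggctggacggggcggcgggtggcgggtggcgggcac
Top2a (chr11:99024190-99024439, minus strand): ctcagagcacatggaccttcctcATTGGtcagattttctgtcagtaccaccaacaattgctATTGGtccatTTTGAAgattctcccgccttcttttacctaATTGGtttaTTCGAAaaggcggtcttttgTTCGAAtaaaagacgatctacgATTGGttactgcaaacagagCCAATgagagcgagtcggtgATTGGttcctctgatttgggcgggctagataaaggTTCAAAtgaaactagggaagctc
Plk1 (chr7:122159185-122159434, plus strand): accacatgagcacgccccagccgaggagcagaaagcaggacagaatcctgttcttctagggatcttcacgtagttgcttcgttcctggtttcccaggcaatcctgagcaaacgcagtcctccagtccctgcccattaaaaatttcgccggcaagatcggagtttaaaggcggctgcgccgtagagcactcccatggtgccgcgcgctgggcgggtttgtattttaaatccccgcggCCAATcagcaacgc
Ube2c (chr2:164769679-164769927, plus strand): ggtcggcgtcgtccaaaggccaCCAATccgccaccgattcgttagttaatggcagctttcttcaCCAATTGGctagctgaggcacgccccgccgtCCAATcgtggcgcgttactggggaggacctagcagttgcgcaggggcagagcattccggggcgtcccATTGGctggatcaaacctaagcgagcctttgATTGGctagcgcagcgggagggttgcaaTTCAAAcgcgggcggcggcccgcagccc
Espl1 (chr15:102296043-102296292, plus strand): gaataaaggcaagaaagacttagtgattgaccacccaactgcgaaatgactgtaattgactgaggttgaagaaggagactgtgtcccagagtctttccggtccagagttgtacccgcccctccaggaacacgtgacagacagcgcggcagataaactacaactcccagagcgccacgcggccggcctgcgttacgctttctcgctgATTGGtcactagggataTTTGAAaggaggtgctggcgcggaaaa
Top2a held 4 CHR and 6 CCAAT matches in this stretch, and Ube2c 1 and 6, of which 2 CCAAT matches overlap on opposite strands. Cdk1 had CHR matches at -71 and -15. Espl1 had a CHR match at -27, just after a CCAAT match at -44. Plk1 had a CCAAT match at -14 and no CHR before the start.

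**Figure D2:**
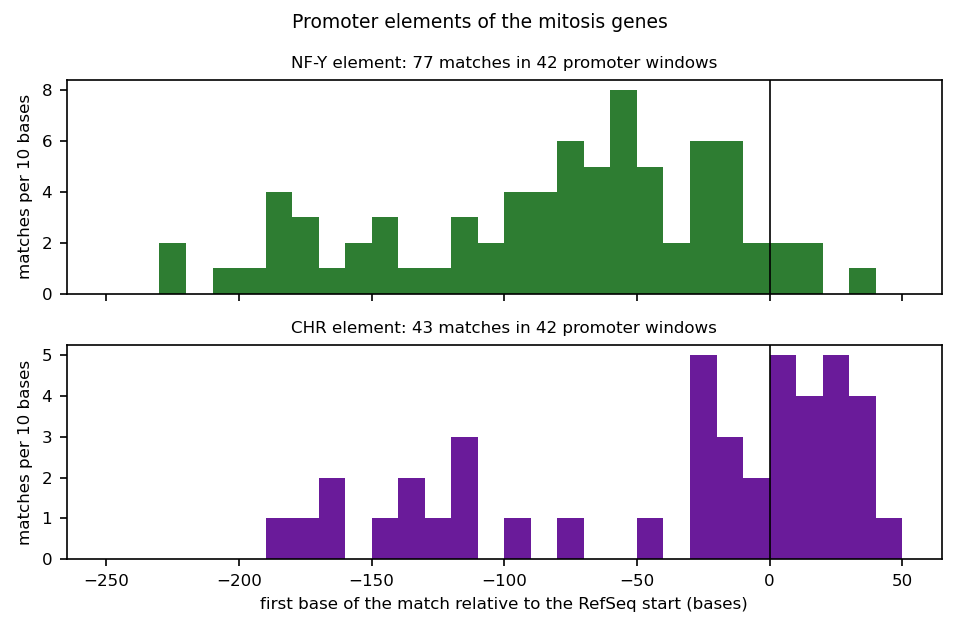
Positions of the motif matches in the 42 promoter windows of the mitosis genes, as matches per 10 bases (vertical axis) by distance from the RefSeq start in bases (horizontal axis), with the CCAAT box, the NF-Y element, above and the CHR element below. The 77 CCAAT matches lie mostly before the start around their median of -68, and the 43 CHR matches lie around the start, with 19 at or after it.

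Among the genes of entry into mitosis, Cdk1, the kinase that drives entry (chr10:69335146-69352938, minus strand), was at 1805 and 2918 normalized counts in WT 1 and WT 4 and at 3777, 3529.6 and 2790.1 in p75NTR-/- 1, 2 and 4. Its lowest library was WT 1 and its highest p75NTR-/- 1, with WT 4 and p75NTR-/- 4 within 1.2-fold of each other. Means of Cdk1 were 2361 ± 787 (mean ± SD, n = 2) with the WT label and 3365 ± 513 (mean ± SD, n = 3) with the p75NTR-/- label, and the label difference was 0.54 ± 0.28 (log2, SE by limma). Ccnb1 (cyclin B1, chr13:100778650-100786570, minus strand) was at 2138 and 2634 normalized counts in WT 1 and WT 4 and at 3321, 3480.3 and 2452 in p75NTR-/- 1, 2 and 4. Cks2, a small subunit that binds the cyclin-dependent kinase (chr13:51645232-51650660, plus strand), was at 425 and 739.6 normalized counts in WT 1 and WT 4 and at 789.6, 793 and 686 in p75NTR-/- 1, 2 and 4. For Cks2 the label difference was 0.43 ± 0.28, and it was 0.03 without WT 1, so that the difference rested on that library. All 8 genes of this list (with Ccna2, Ccnb2, Cdc25c, the phosphatase that activates Cdk1, Foxm1, a transcription factor of G2 genes, and Cdca3) had a higher mean under the p75NTR-/- label, by 0.09 to 0.54. Ccnb2 was least like the rest, with 638 and 822 normalized counts in WT 1 and WT 4 and at 878, 828 and 636 in p75NTR-/- 1, 2 and 4 (chosen after its values were seen). Its lowest level was in p75NTR-/- 4, close to that in WT 1.

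Of the mitotic kinases, Plk1, which acts in spindle assembly and exit (chr7:122159439-122169873, plus strand), was at 909 and 1029 normalized counts in WT 1 and WT 4 and at 1605, 1791 and 1033 in p75NTR-/- 1, 2 and 4. The libraries of the labels did not overlap, although WT 4 and p75NTR-/- 4 were nearly equal (a log2 difference of 0.01). Plk1 had means of 969 ± 84.9 (mean ± SD, n = 2) with the WT label and 1476 ± 395 (mean ± SD, n = 3) with the p75NTR-/- label, with a label difference of 0.57 ± 0.29. Without WT 1 the remaining difference was 0.48, and leaving out each library in turn gave 0.41 to 0.81. Pbk, a kinase of mitotic cells (chr14:65805837-65817822, plus strand), was at 1236 and 2095 normalized counts in WT 1 and WT 4 and at 2164, 2135 and 1884 in p75NTR-/- 1, 2 and 4. Here 4 of the 5 libraries lay close together and WT 1 alone was low, and the label difference of 0.35 ± 0.27 was -0.03 without WT 1. Aurka, Nek2 and Melk, which encode kinases of the centrosome and of dividing progenitors, had WT 1 lowest too, with label differences between 0.35 and 0.54.

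The chromosomal passenger complex, which corrects wrong attachments at the inner centromere, was read as Aurkb (its kinase), Incenp, Birc5 and Cdca8. Birc5 (survivin, chr11:117849251-117855743, plus strand) was at 372 and 472 normalized counts in WT 1 and WT 4 and at 696, 697 and 448 in p75NTR-/- 1, 2 and 4. The libraries numbered 4 and WT 1 formed a lower group of 3 and p75NTR-/- 1 and 2 an upper pair. The label difference of Birc5 was 0.52 ± 0.28. The 4 subunits were alike, with label differences of 0.44 to 0.52, differences of 0.79 to 0.90 within number 1 and of -0.21 to -0.08 within number 4.

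The spindle checkpoint genes encode the proteins that sit on unattached kinetochores and block Cdc20. Mad2l1 (MAD2, which binds Cdc20, chr6:66535390-66547220, plus strand) was at 428 and 705 normalized counts in WT 1 and WT 4 and at 904, 824 and 678 in p75NTR-/- 1, 2 and 4. Ttk (the kinase MPS1, which starts the signal, chr9:83834689-83872389, plus strand) was at 405 and 489 normalized counts in WT 1 and WT 4 and at 677, 710.0 and 427 in p75NTR-/- 1, 2 and 4. Bub3, a scaffold for Bub1 and Bub1b (chr7:131560222-131571895, plus strand), was at 1658 and 1937 normalized counts in WT 1 and WT 4 and at 2409, 2346 and 1786 in p75NTR-/- 1, 2 and 4. Mad2l1 was lowest in WT 1 and about even in the libraries numbered 4, while for Ttk WT 1 and p75NTR-/- 4 were close. Bub3, the gene of the 5 with the highest median TPM, had the smallest label difference (0.27 ± 0.21) and Mad2l1 the largest (0.54 ± 0.28). Bub1 and Bub1b lay between, and WT 1 was the lowest library for all 5.

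The common order, with WT 1 lowest, the libraries numbered 4 between and p75NTR-/- 1 and 2 highest, was followed by 4 of the 7 kinetochore genes. Cenpe, a kinesin that carries chromosomes to the spindle equator (chr3:135212537-135273611, plus strand), was at 1081 and 955 normalized counts in WT 1 and WT 4 and at 1459, 1613 and 866 in p75NTR-/- 1, 2 and 4. Both libraries numbered 4 were lower than the other 3, WT 1 included, and the label difference was 0.32 ± 0.32. Cenpf, a large protein of the outer kinetochore (chosen after its values were seen), was at 1840.0 and 1462 normalized counts in WT 1 and WT 4 and at 2039, 2316 and 1370.2 in p75NTR-/- 1, 2 and 4. Its 2 libraries numbered 4 were again the lowest. Cenpa, the histone variant of centromeres (chr5:30666777-30674830, plus strand), was at 594 and 602 normalized counts in WT 1 and WT 4 and at 811, 839.8 and 548 in p75NTR-/- 1, 2 and 4, so that WT 1, WT 4 and p75NTR-/- 4 were alike. Spc24, a subunit of the NDC80 complex that binds microtubules (chr9:21755442-21760303, minus strand), was at 104 and 199 normalized counts in WT 1 and WT 4 and at 203, 269 and 154 in p75NTR-/- 1, 2 and 4. Spc24 had the lowest counts of all 48 genes, and its label difference of 0.50 ± 0.38 was 0.03 without WT 1. The other subunits Ndc80, Nuf2 and Spc25 followed the common order, with differences of 0.79 to 0.95 within number 1.

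Among the chromosome genes, Top2a, the topoisomerase that untangles sister DNA (chr11:98992943-99024189, minus strand), was at 4965 and 8077 normalized counts in WT 1 and WT 4 and at 9342, 9638 and 8132 in p75NTR-/- 1, 2 and 4. This was the highest count of the 48 genes. The libraries of the labels did not overlap, with p75NTR-/- 4 just above WT 4 (1.01-fold). Top2a had means of 6521 ± 2200.0 (mean ± SD, n = 2) with the WT label and 9038 ± 798 (mean ± SD, n = 3) with the p75NTR-/- label and a label difference of 0.51 ± 0.26. Mki67, the Ki-67 gene that marks cycling cells (chr7:135689784-135716361, minus strand), was at 4462 and 4247 normalized counts in WT 1 and WT 4 and at 6072, 6917 and 4092 in p75NTR-/- 1, 2 and 4. Unlike Top2a, Mki67 was lowest in the libraries numbered 4, with WT 1 just above them. Ncaph, a condensin subunit (chr2:127103809-127133954, minus strand), was at 702 and 1067 normalized counts in WT 1 and WT 4 and at 1795, 1419 and 926 in p75NTR-/- 1, 2 and 4. It had the widest difference within number 1, 2.56-fold, and also the widest gap between p75NTR-/- 1 and 2 of this list. The other condensin genes Smc2, Smc4, Ncapd2 and Ncapg were each lowest in WT 1, with label differences of 0.37 to 0.55.

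For the spindle and cytokinesis genes, Prc1, which bundles the microtubules of the central spindle (chr7:80294450-80316259, plus strand), was at 1807 and 2880.5 normalized counts in WT 1 and WT 4 and at 2829, 3025 and 2526 in p75NTR-/- 1, 2 and 4. WT 4 lay above p75NTR-/- 1, and the label difference of 0.29 ± 0.25 was -0.05 without WT 1. Racgap1, a GTPase-activating protein of the centralspindlin complex (chr15:99620496-99651656, minus strand), was at 1912 and 2517 normalized counts in WT 1 and WT 4 and at 3296, 3485 and 2248 in p75NTR-/- 1, 2 and 4. Racgap1 had the common order, with a label difference of 0.43 ± 0.27. Nusap1, Tpx2 and Hmmr (spindle assembly factors) and Ect2 and Anln (which act on the contractile ring) had label differences of 0.27 to 0.42, and WT 1 was the lowest library for all 7 genes of the list.

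In the anaphase list, Ube2c, the ubiquitin-conjugating enzyme of the APC/C (chr2:164769898-164778822, plus strand), was at 888 and 1191 normalized counts in WT 1 and WT 4 and at 1332, 1635 and 1209.6 in p75NTR-/- 1, 2 and 4. The labels did not overlap, with p75NTR-/- 4 again just above WT 4 (1.02-fold). Ube2c had means of 1040.0 ± 214 (mean ± SD, n = 2) with the WT label and 1392 ± 219 (mean ± SD, n = 3) with the p75NTR-/- label and a label difference of 0.42 ± 0.23. Espl1, the separase that cuts cohesin (chr15:102296266-102324357, plus strand), was at 397 and 474 normalized counts in WT 1 and WT 4 and at 832, 969.5 and 422 in p75NTR-/- 1, 2 and 4. This was the widest label difference of the 48 (0.68 ± 0.40), in the gene with the lowest median TPM, and it came from p75NTR-/- 1 and 2, as p75NTR-/- 4 lay below WT 4. Pttg1, the securin that inhibits separase (chr11:43420250-43426251, minus strand, chosen after its values were seen), was at 659.5 and 701 normalized counts in WT 1 and WT 4 and at 540.2, 555 and 666 in p75NTR-/- 1, 2 and 4. Its highest library was WT 4 and its lowest p75NTR-/- 1, unlike any other gene of the 48. Both libraries numbered 4 lay above WT 1, p75NTR-/- 4 only just, and the label difference was -0.22 ± 0.18. Cdc20, which activates the APC/C, and Cdca5 (sororin, a guard of cohesin) had the common order, with label differences of 0.37 and 0.45.

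The study set cultures labelled p75NTR-/- against cultures labelled WT, and since Ngfr went against these labels, the comparison is one of labels. It called none of the 48 genes. By the criteria of the paper's methods (a mean of at least 50, a change of at least 1.5-fold and an adjusted p under 0.05), limma called 0 of the 48 and 1 of the 12588 gene sums (0.00794%). Of the 48, 0 had an unadjusted limma p under 0.05, against 2.08% of all, and edgeR and DESeq2 on recovered counts also called 0 (0.0% and 0.0556% of all), with 0 and 2 genes (Plk1 and Espl1) under that p, where 2.11% and 2.99% of all genes were. The 48 Benjamini-Hochberg adjusted p-values by limma lay between 0.93 and 0.96. The mean was higher under the p75NTR-/- label for 47 of the 48, with a median difference of 0.42 (log2). Of the 10786 genes with a mean of at least 50, 5671 were higher, with a median of 0.02. The standard errors of 0.18 to 0.40 show how wide the spread within labels was. Only Plk1, Top2a and Ube2c had every p75NTR-/- library above every WT library, 3 of 48 where 7.76% of all genes did so, and 0 of 48 had the opposite, compared with 6.96%. With 2 against 3 libraries, an exact permutation test of a single gene cannot give a p below 0.1.

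Leaving out WT 1 lowered the median label difference to 0.17, with 43 of 48 still higher under the p75NTR-/- label, and leaving out WT 4 raised it to 0.68. Without WT 1, 5517 of the 10786 genes with a mean of at least 50 were higher. As a list, the astrocyte markers ran against the mitosis genes. Their summed level was 33667 and 30014 normalized counts in WT 1 and WT 4 and 19518, 23062 and 33505 in p75NTR-/- 1, 2 and 4, and 6 of 6 were lower under the p75NTR-/- label in mean log2 level. Gfap, an intermediate filament of astrocytes, was at 241 and 680.3 normalized counts in WT 1 and WT 4 and at 11.9, 1.2 and 746 in p75NTR-/- 1, 2 and 4. The median of the 6 as a deviation from each gene's mean (log2) was 0.78 and 0.38 in WT 1 and WT 4 and -0.88, -0.66 and 0.39 in p75NTR-/- 1, 2 and 4. For the 48 mitosis genes it was -0.49 and -0.01 and then 0.27, 0.35 and -0.14. By these medians WT 1 was the highest library for the astrocyte list and the lowest for mitosis, and p75NTR-/- 1 and 2 the reverse. The single markers did not all follow this order. Among the 6, Gfap and Aqp4 were higher in both libraries numbered 4 than in WT 1, and Aldh1l1 was highest in p75NTR-/- 4. S100b, Gja1 and Slc1a2 were highest in WT 1, and S100b was lowest in WT 4 (347 normalized counts). The same medians of the 5 listed oligodendrocyte lineage markers were 0.83 and -0.53 in WT 1 and WT 4. In p75NTR-/- 1, 2 and 4 they were -0.68, 0.36 and -0.14. For the 10 progenitor markers they were 0.22 and -0.05 and then -0.35, -0.01 and 0.11. Both lists were thus higher in WT 1 than in p75NTR-/- 1, as the astrocyte list was. The 4 listed neuronal markers had 0.26 in WT 1 and 0.25 in p75NTR-/- 1. The part of these markers in the label difference was not tested.

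Within replicate number 1, the p75NTR-/- library was above the WT library for 47 of the 48 genes (52.5% of all genes with a mean of at least 50), with a median log2 difference of 0.81 (1.75-fold). The difference was at least 1.5-fold for 37 (77.1%), compared with 15.1% of all genes with a mean of at least 50. Within number 4, the p75NTR-/- library was below the WT library for 45 of the 48 (50.5% of all). The difference was small, with a median of -0.11 (0.926-fold) and 46 genes within 1.2-fold (95.8%, against 87.7% of all). A gene was higher in number 1 and lower in number 4 in 44 of the 48 cases (91.7%) and in 29.1% of all. With 1 library on each side, these differences carry no test. The exceptions were Plk1, Top2a and Ube2c, which were higher within number 4 too, by at most 0.02, and Pttg1, which was lower in both.

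The libraries of a label also differed. WT 4 was above WT 1 for 45 of the 48 genes (median 0.46), and p75NTR-/- 4 was below p75NTR-/- 1 for 47 (median -0.42). Of the 10786 gene sums with a mean of at least 50, this held for 5698 and 5611. p75NTR-/- 1 and 2 differed less, with a median of 0.06 and 45 genes within 1.2-fold, compared with 74.6% of all. Spc24, Ncaph and Ube2c were the 3 outside that range. In a fit with the label, the number and their interaction, added after seeing the data, the interaction had a median of -0.94 and an unadjusted limma p under 0.05 for 38 of the 48 genes, against 14.9% of all. None was called, and the lowest adjusted p by limma was 0.33. This fit set number 4 against numbers 1 and 2 together. It rests on 1 residual degree of freedom, the difference between p75NTR-/- 1 and 2, and assumes that the other libraries vary like these.

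**Figure D3:**
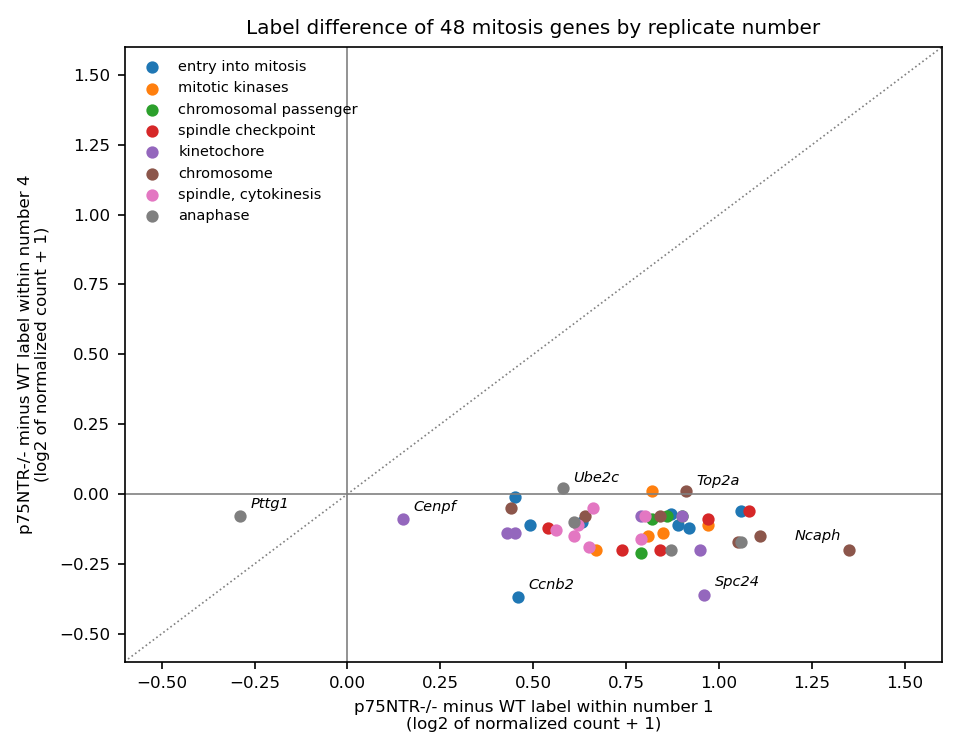
Label difference (p75NTR-/- minus WT, log2 of normalized count + 1) of each of the 48 genes within number 1 (horizontal axis) and within number 4 (vertical axis), coloured by role, with equal values on the dotted line. Nearly all genes lie well to the right of 0 on the horizontal axis and just under 0 on the vertical axis, with medians of 0.81 and -0.11, and Pttg1 lies to the left.

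The replicate number was then compared, as 2 libraries numbered 4 (1 of each label) against the 3 numbered 1 or 2. limma called 0 of the 48 genes and 126 of all 12588 (1.0%), and 2 of the 48 (Cenpe and Cenpf) had an unadjusted p under 0.05, where 20.9% of all genes did. The count was 0 called by edgeR and DESeq2 too, where they called 2.24% and 7.01% of all genes. Under an unadjusted p of 0.05 they had 2 and 3 (Cenpe, Cenpf and Mki67) of the 48, against 21.4% and 20.4% of all, and Cenpf passed an adjusted p of 0.05 in DESeq2 but not the 1.5-fold minimum. Cenpe had -0.59 ± 0.21 (log2, SE, limma adjusted p = 0.22) and Cenpf -0.54 ± 0.15 (limma adjusted p = 0.15), both lower in number 4. The 48 genes split into 35 lower and 13 higher in number 4, with a median of -0.13. Of the 10786 genes with a mean of at least 50, 5287 were lower. The numbers did not overlap for Cenpe, Cenpf and Mki67, lower in number 4 (22.0% of all genes were), and for Pttg1, higher in number 4 (23.0% of all). WT 1 shared a side with p75NTR-/- 1 and 2 in this comparison but was far below them for most of the 48.

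Without WT 1, a setting in which the 2 libraries numbered 4 were set against p75NTR-/- 1 and 2 alone, 8 of the 48 genes were called lower in number 4 by limma, compared with 3.57% of all. These were Espl1 (-1.0), Cenpe (-0.75), Plk1 (-0.72), Melk (-0.69), Ndc80 (-0.64), Mki67 (-0.64), Cenpf (-0.62) and Birc5 (-0.60), of which Melk, Ndc80 and Cenpf are named after their values were seen. The median over the 48 was -0.35. Calls in this setting were not particular to the 48. Of the lists read below, 15 of 107 other mitosis genes and 5 of 30 S phase genes were called, in either direction. Their medians were -0.35 and -0.47, and 1119 of all 12588 gene sums were called in either direction. In this setting both libraries numbered 1 or 2 carry the p75NTR-/- label, and those numbered 4 carry 1 label each. Espl1 in p75NTR-/- 4 (422 normalized counts) lay nearer to WT 4 (474) than to p75NTR-/- 1 and 2 (832 and 969.5), and over the 48 genes the median of p75NTR-/- 4 minus WT 4 was -0.11 and of p75NTR-/- 4 minus p75NTR-/- 1 -0.42. The adjusted p-values of the 8 by limma lay between 0.035 and 0.049.

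Levels of different genes were compared by the deposited TPM, summed per gene. This TPM did not follow the counts over the annotated transcript lengths. In WT 4, Aurka had 720.9 normalized counts, a transcript of 1905 bases and 27.15 TPM. Cenpa had 602.3 normalized counts, a main transcript of 1466 bases and 158.2 TPM. The order below is therefore one of deposited TPM, and the reason for the mismatch was not tested. Cks2 had the highest median of the 5 libraries, 342 TPM, followed by Cdk1 at 163, Cenpa at 158.5, Ube2c at 141 and Pbk at 115. Cks2 ranged from 196 to 374 TPM, and its lowest library lay within the range of Cdk1 (100.4 to 213). The ranges of Cdk1, Cenpa (124 to 250.4) and Ube2c (104 to 196.5) overlapped, so that their order is not beyond the spread of the libraries. At the other end stood Espl1 with a median of 3.27 TPM (2.73 to 6.81), Cenpe with 6.02 and Ttk with 8.43. The median over the 48 genes was 33.8 TPM. Mki67 and Top2a, both with high counts, were at 19.0 and 73.5 TPM, with a Mki67 transcript of 10061 bases.

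**Figure D4:**
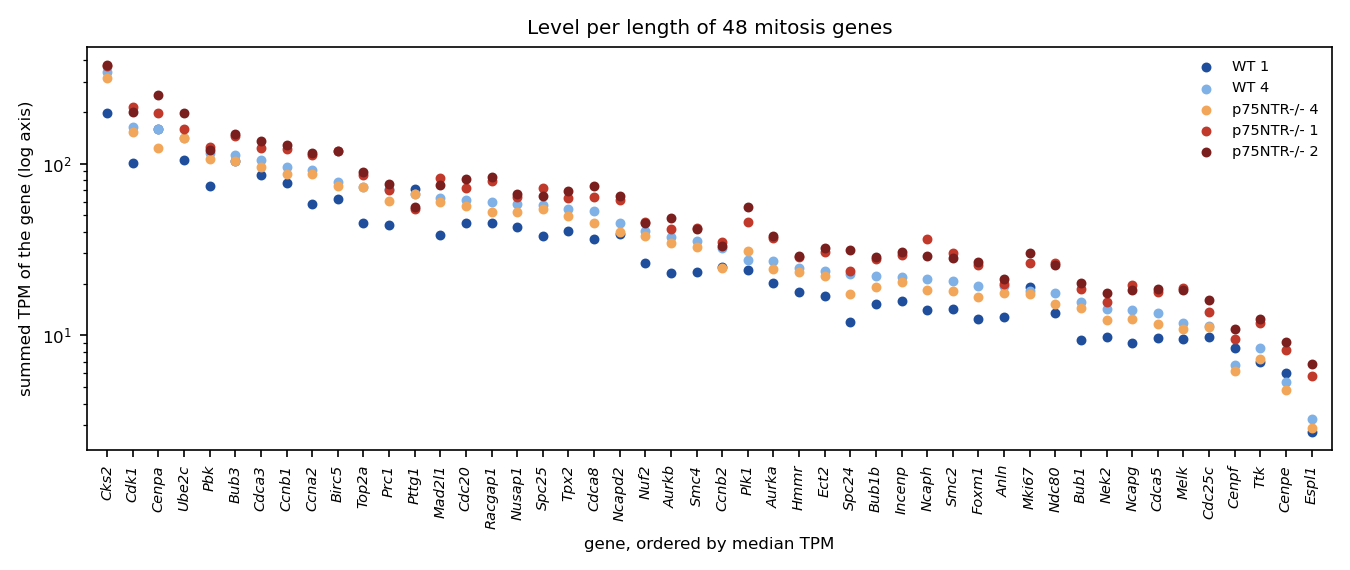
Summed TPM (vertical log axis) of the 48 genes, ordered by their median, with 1 point for each of the 5 libraries. Levels span from a median of 342 TPM for Cks2 to 3.27 for Espl1, and the dark blue points of WT 1 lie at the lower edge for most genes.

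The table lists transcripts, and 75 of them belong to the 48 genes, with 30 genes given as a single transcript. limma called 0 of the 75 between the labels (3 of 22227 in all, 0.0135%), and 2 had an unadjusted p under 0.05, where 3.14% of all did. Both were minor forms of their genes. A Plk1 form annotated as nonsense-mediated decay, 722 bases long, was at 0 and 3.12 normalized counts in WT 1 and WT 4 and at 35.6, 96.1 and 50.7 in p75NTR-/- 1, 2 and 4, with a limma adjusted p of 0.54. Both libraries labelled WT were at or under 3 counts, so no fold is given. Its share of the Plk1 sum was at most 5.37% in a library. A minor Cdca8 form was at 0 and 3.12 in WT 1 and WT 4 and at 13.9, 8.41 and 20.1 in the others, with a limma adjusted p of 0.96. Prc1 was the gene with the most even split, with 59.1% of its sum in a form of 15 exons and 31.3% in a form of 14, and their label differences of 0.31 ± 0.25 and 0.07 ± 0.31 (log2, SE) were within the error of each other. A Smc4 form shifted without order, with 380 normalized counts in WT 4, 84.1 and 31.7 in p75NTR-/- 1 and 4 and 0 in WT 1 and p75NTR-/- 2. The authors' quantification divides reads between forms that share exons, and processed copies of genes such as Ccnb1 exist in the genome, so values of minor forms are uncertain.

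Other genes of mitosis, 107 genes in 6 lists and all listed, were read in the same way. With all 5 libraries, limma called none in either comparison. Between the labels 0 of 107 had an unadjusted p under 0.05, against 2.08% of all genes, and between the numbers 4, against 20.9%. edgeR and DESeq2 had 1 and 4 under that p between the labels, against 2.11% and 2.99% of all genes. Between the numbers they had 6 and 6, against 21.4% and 20.4%. On recovered counts, edgeR called 0 in both and DESeq2 0 between the labels and 2 between the numbers (Mad1l1 and Numa1, both lower in number 4 and named after their values were seen), where DESeq2 called 7.01% of all genes between the numbers. Of the 107, 93 had a higher mean under the p75NTR-/- label, with a median of 0.33, where 5671 of the 10786 genes with a mean of at least 50 did. Within number 1 their median was 0.67 and within number 4 -0.10, and WT 1 was the lowest library for 75 (70.1%). The kinesins (12 genes) and the further kinases and entry factors (14 genes) had label medians of 0.47 and 0.50, close to the 0.42 of the 48. The checkpoint and APC/C list (18 genes) and the cohesin and condensin list (17 genes) had label medians of 0.11 and 0.10. Their medians within number 1 were 0.12 and 0.14. Single genes of these 2 lists had label differences from -0.18 to 0.73 and from -0.22 to 0.61.

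By the largest label difference in each list, the kinase Pkmyt1, which holds Cdk1 inactive, was at 101 and 182 normalized counts in WT 1 and WT 4 and at 274, 339 and 179.6 in p75NTR-/- 1, 2 and 4. Trip13, which takes the checkpoint complex apart, was at 101 and 157 normalized counts in WT 1 and WT 4 and at 219, 255 and 166 in p75NTR-/- 1, 2 and 4. Kntc1, a kinetochore protein, was at 355 and 613 normalized counts in WT 1 and WT 4 and at 922, 873 and 567 in p75NTR-/- 1, 2 and 4. For each of the 3, WT 1 was lowest, and WT 4 and p75NTR-/- 4 were within 1.2-fold of each other. Kif18b, a kinesin of spindle microtubules, Ncapg2, a condensin II subunit, and Depdc1b, named by the same rule, had label differences of 0.58, 0.61 and 0.52.

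Genes of S phase gave the same order with wider steps. All 30 had a higher mean under the p75NTR-/- label, with a median of 0.72, where 5671 of the 10786 genes with a mean of at least 50 did. With all 5 libraries, limma called 0 in either comparison. It had 0 under an unadjusted p of 0.05, against 2.08% of all genes between the labels and 20.9% between the numbers. edgeR and DESeq2 also called 0 in either comparison. Between the labels they had 3 and 9 of the 30 under that p, against 2.11% and 2.99% of all genes. Between the numbers they had 0 and 0, against 21.4% and 20.4%. Within number 1 the median was 1.37 (2.58-fold) and within number 4 -0.14. Mcm3, a subunit of the replicative helicase, was at 795 and 1908 normalized counts in WT 1 and WT 4 and at 2693, 2703 and 1921 in p75NTR-/- 1, 2 and 4. WT 1 was the lowest library for 29 of the 30. The difference between the S phase and mitosis medians was not tested.

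**Figure D5:**
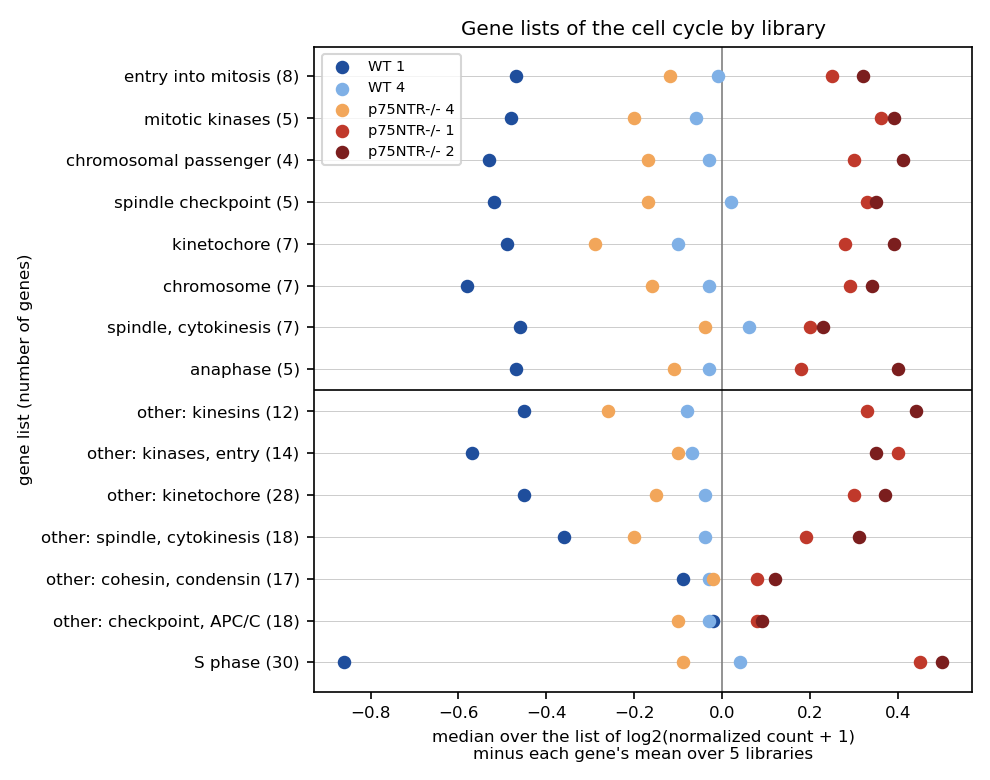
Median deviation of each gene list (rows, with the number of genes) in each library (coloured points), as log2(normalized count + 1) less the mean of a gene over the 5 libraries. In the 8 lists of the 48 genes, above the line, WT 1 lies between -0.58 and -0.46 and p75NTR-/- 1 and 2 between 0.18 and 0.41. Below the line, the S phase list is wider, with WT 1 at -0.86, and the lists of cohesin and condensin and of checkpoint and APC/C genes are narrower.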

How the data were processed

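RNA-Seq values of 5 libraries were taken from a table of 22227 transcripts. The authors quantified stranded mRNA libraries with Salmon 0.10.2 on GRCm38.p6 and normalized them with DESeq2 1.22.0 in R 3.6.1. The deposited signal is a count over the size factor of the library plus 0.5, which was subtracted, and dividing by the step between values gave whole counts within 0.02 for at least 99.97% of values. Lines that repeat a transcript (303) were dropped, and the deposited TPM, treated as a score because the repeats lift its total above that of a TPM column, was summed per symbol and tested only as an alternative. The authors' own mean, fold change and p-value columns were left aside, and the number of other columns with per-sample values was 0.

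limma 3.58.1 was fitted to log2(normalized count + 1) of all 12588 gene sums, since the values are not whole, for label and for replicate number with no covariate, with Benjamini-Hochberg adjustment. edgeR 4.0.16 (quasi-likelihood) and DESeq2 1.42.0 on recovered counts were alternatives, as were TMM scaling, a pseudocount of 10, filters, TPM sums, a replicate block and leaving out each library. Fold changes are on the log2(value + 1) scale. The limma step was tested on simulated counts. Named with a value in every library were, in each role list, the gene with the highest median TPM and those with the largest label and number differences, and genes called or with labels apart. The members, lists and rules were chosen with earlier results of these data known.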

Additional observations from a re-analysis of the deposited data

Results flagged for a closer look

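The label difference had opposite signs in the 2 replicate numbers that have both labels, but it was small within number 4. There 46 of the 48 genes were within 1.2-fold (95.8%, against 87.7% of all). Over the 48 mitosis genes, the median of p75NTR-/- minus WT was 0.81 (log2) within number 1 and -0.11 within number 4, and 44 of the 48 genes were higher in the former and lower in the latter, as were 29.1% of all genes with a mean of at least 50. Seen from the other side, number 4 minus number 1 had a median of 0.46 under the WT label and -0.42 under the p75NTR-/- label. Each of these 4 medians rests on 1 library a side. The interaction of label and number, added after seeing the data, was fitted gene by gene and does not test these medians. It set number 4 against numbers 1 and 2 together, so that p75NTR-/- 2 was included. Its unadjusted limma p was under 0.05 for 38 of the 48 genes, against 14.9% of all, none was called, and the lowest adjusted p by limma was 0.33. That fit has 1 residual degree of freedom, from p75NTR-/- 1 and 2. The 6 astrocyte markers had a median deviation from each gene's mean (log2) of 0.78 and -0.88 in the WT and p75NTR-/- libraries of number 1 and of 0.38 and 0.39 in those of number 4. For the 5 oligodendrocyte lineage markers it was 0.83 and -0.68 in number 1 and -0.53 and -0.14 in number 4. For the 10 progenitor markers it was 0.22 and -0.35, then -0.05 and 0.11. The part of these lists in the result was not tested.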

How the results depend on the processing

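No mitosis gene was called between the labels under any of the alternatives run, and the median label difference (0.42) stayed between 0.40 and 0.43 under the other tools, scalings and filters. With the replicate block it was 0.33, and leaving out each library gave 0.17 to 0.68. The replicate block called 0 gene sums and 0 transcripts. The replicate numbers were not shown to pair the libraries, since deviations from the label means correlated at 0.26 for number 1 and 0.48 for number 4 but there are only 2 pairs.

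Counts over all genes moved more. Between the labels 1 gene sum was called, against 7 by DESeq2, 0 by edgeR, 0 with TPM sums, and 0 to 1 with a library left out. Of the transcripts 3 were called, 31 with no minimum mean, and 0 with any library left out. Between the numbers 126 gene sums were called, against 882 by DESeq2, 276 by edgeR, 243 with a pseudocount of 10, 257 with only gene sums of at least 50 in the fit, 32 with the label as a covariate, and 0 to 1119 with a library left out. Among the 48 genes the number calls ranged from 0 to 8 with a library left out, the 8 without WT 1. The label differences of Pbk and Prc1 reversed without WT 1, to -0.03 and -0.05 (leaving out each library gave -0.03 to 0.73 and -0.05 to 0.62). The share of promoter windows with a CHR fell from 73.8% to 40.5% with only the bases before the start. The causes were not tested. Of the single-gene results, 317 alternatives kept direction and call, 5 became calls (Plk1, Birc5, Cenpe, Mki67 and Espl1 between the numbers without WT 1) and 2 reversed.

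With 2 against 3 libraries and standard errors of 0.18 to 0.40, differences of the size seen here could not be told from the spread between libraries of a label. The genes of a list belong to the same cell cycle phase and are not independent of each other.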
